A study of Mus musculus with 12 samples.

Results

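The collagen prolyl and lysyl hydroxylases were followed in single tendon cells. Their 10 genes were P4ha1, P4ha2, P4ha3, P4hb, Plod1, Plod2, Plod3, P3h1, P3h3 and Crtap, taken by symbol from the 55418 genes of the raw count table. Of these 10 genes, 8 had at least 20 counts over all cells, while P4ha3 and P3h3 had 0 counts in every cell. The table holds 12 cells, each a library of its own, from non-injured, untreated Achilles tendons of mice on the C57BL/6 background, given as C57BL/6J in the study's methods. There were 6 Tnmd-/- ScxGFP+ cells, which carry a constitutive knockout of tenomodulin, and 6 Tnmd WT ScxGFP+ cells. All 12 carried ScxGFP, a transgenic reporter driven by regulatory elements of the tendon transcription factor Scx, and were picked by hand on their green fluorescence after collagenase digestion. Tnmd lies on the X chromosome, and the WT group of the study took in hemizygous males as well as homozygous and heterozygous females. The age of the mice behind these cells and the animal each cell came from are not given in the labels. Each genotype was therefore treated as 1 sample, cells were not taken as replicates, and no test between genotypes was made.

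Collagen chains are hydroxylated in the endoplasmic reticulum before they fold into a triple helix. Prolyl 4-hydroxylase, a tetramer of catalytic alpha subunits and the disulfide isomerase P4hb, makes the 4-hydroxyproline that keeps the helix stable at body temperature. Lysyl hydroxylases make the hydroxylysine on which sugars are placed and from which stable cross-links between collagen molecules are later built. A further activity, prolyl 3-hydroxylation, modifies a small number of prolines and is carried out for fibrillar collagen by a complex of P3h1, Crtap and the cyclophilin Ppib. All of these enzymes need oxygen, iron, 2-oxoglutarate and ascorbate, and tendon, which consists mostly of type I collagen, depends on them for its tensile strength.

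Reads per cell ranged from 892713 to 10333351 in Tnmd-/- and from 4516036 to 13613080 in WT cells, and intervals given here account for counting error alone, since copies made by amplification were not told apart by molecular tags. Tnmd itself had 0 to 5 counts in the Tnmd-/- cells, but among the WT cells it reached 10178 counts only in cell 14 and had 0 to 7 counts in the other 5, so it checks the genotype label of 1 WT cell. Tnmd-/- cells 3 and 7 stood apart by depth, and 51.8% of the reads of cell 3 came from mitochondrial genes, against 1.75% to 7.30% in the other 11 cells. The study's heat map annotation marks Tnmd-/- cells 9, 10 and 20 and WT cells 4, 5 and 10 as less degraded and the other 6 cells as more degraded. The labelled cell type was checked on 10 tendon fibroblast markers, whose summed level was 1528 to 87941 CPM (counts divided by the total counts of a cell, times 1000000) in Tnmd-/- cells and 32666 to 176961 CPM in WT cells. Dcn was counted in all 12 cells, whereas Scx had 3 or fewer counts in all Tnmd-/- cells and in WT cells 2, 5 and 14, and Kera was at 0 throughout. Endothelial and immune markers did not exceed 30.9 and 0.871 CPM in any cell. Cartilage markers reached 1330 CPM and mural markers 641 CPM in individual cells, with Col2a1 and Cnmd at 0.

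P4hb and P4ha1 led the summed reads of the hydroxylase genes in both genotypes. Plod2 and Plod1 had at least 10 counts in 9 and 8 cells, the other members in 5 or fewer, and P4ha3 and P3h3 in none. In the summed reads of a genotype the 10 genes held 71241 counts or 2030 CPM in Tnmd-/- and 81583 counts or 1527 CPM in WT cells. The log2 ratio of Tnmd-/- over WT was 0.41 (95% counting interval 0.40 to 0.43). Cell by cell, the summed level in the Tnmd-/- cells was 19.9 CPM in cell 3, 1568 CPM for cell 10, 2221 for cell 9, 2307 for cell 20, 2415 for cell 1 and 4174 for cell 7. In the WT cells it was 3.94 CPM in cell 2, 533 CPM for cell 14, 1520 for cell 5, 1703 for cell 1, 1759 for cell 10 and 2143 for cell 4. The genotypes overlapped, and each had 1 cell nearly without hydroxylase reads, namely Tnmd-/- cell 3 with 30 and WT cell 2 with 19 counts. The ratio was 0.14 in the less degraded cells, 1.38 in the more degraded cells and 0.44 without Tnmd-/- cells 3 and 7. Together P4ha1, P4hb and Plod2 took 86.9% of the hydroxylase reads of the Tnmd-/- cells and 76.9% of those of the WT cells.

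**Figure D1:**
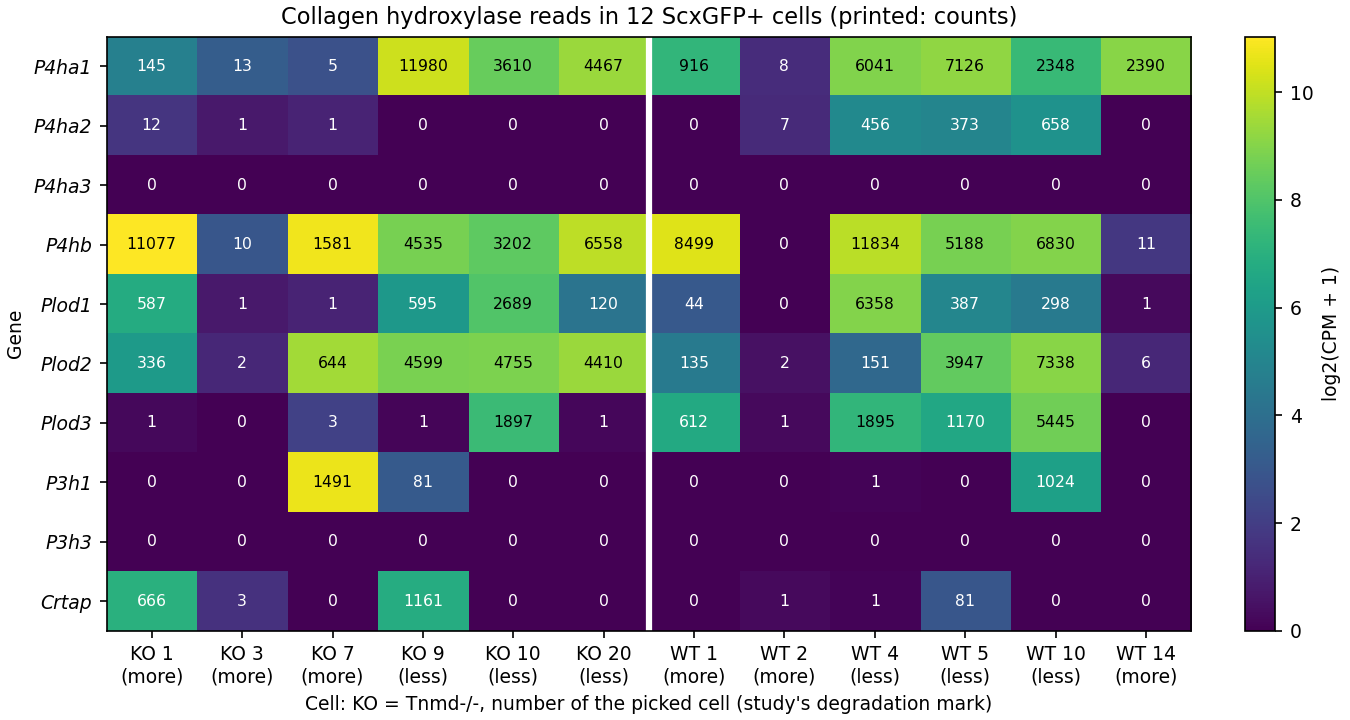
Raw counts (printed) and log2(CPM + 1) (colour) of the 10 hydroxylase genes (rows) in the 12 cells (columns, with the degradation mark of the study). P4ha1 and P4hb fill nearly every column, P4ha3 and P3h3 are at 0 in all 12 cells, and Tnmd-/- cell 3 and WT cell 2 have 30 and 19 hydroxylase counts in all.

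Breadth separated the members more clearly than genotype. P4hb had at least 10 counts in 11 of 12 cells, P4ha1 in 10, Plod2 in 9, Plod1 in 8, Plod3 in 5, P4ha2 in 4, and P3h1 and Crtap in 3 each. Of all 9768 genes with at least 20 counts over the 12 cells, 8.06% reached 10 counts in 9 cells or more, compared with 3 of the 8 hydroxylase genes past that minimum, which were P4ha1, P4hb and Plod2. The median number of cells was 6.5 over these 8 genes and 2 over all 9768. For P4hb, 3.76% of all genes reached its 11 cells or more, and for P4ha1 5.87% reached its 10. A cell held between 0 and 7 of the 10 genes at this level, with a median of 4.5 in Tnmd-/- and 5.5 in WT cells. With at least 1 count as the limit, the medians were 6.5 and 6, and after every cell was thinned to 892713 reads the expected medians were 5.53 and 5.57.

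**Figure D2:**
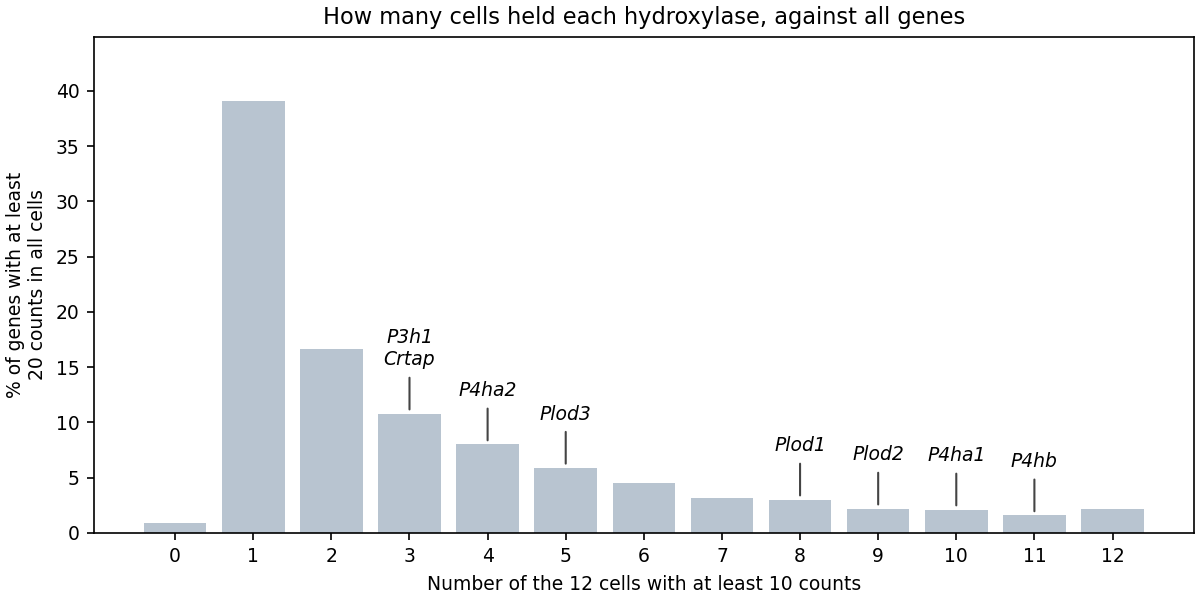
Share of the 9768 genes with at least 20 counts (vertical axis, %) by the number of cells in which a gene had at least 10 counts (horizontal axis), with the 8 hydroxylase genes placed at their own number of cells. P4hb stands at 11, P4ha1 at 10 and Plod2 at 9 cells, where few genes lie, while P3h1 and Crtap stand at 3.

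P4ha1 (ENSMUSG00000019916, chromosome 10, 59323296 to 59373304, plus strand, GRCm38) encodes the main catalytic alpha subunit in most tissues. It had 145, 13, 5, 11980, 3610 and 4467 counts in Tnmd-/- cells 1, 3, 7, 9, 10 and 20, and 916, 8, 6041, 7126, 2348 and 2390 counts in WT cells 1, 2, 4, 5, 10 and 14. The less degraded cells of either genotype were all high, at 172 to 1159 CPM, whereas the more degraded cells ranged from 1.66 CPM in WT cell 2 to 529 CPM in WT cell 14. Summed, P4ha1 stood at 576 CPM in Tnmd-/- and 352 CPM in WT cells, a log2 ratio of 0.71 (0.68 to 0.74). This ratio was 0.85 in the less degraded cells and −3.35 in the more degraded cells, it was −0.08 without Tnmd-/- cell 9, and with DESeq2 size factors it was −0.51, so no direction held throughout.

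P4ha2 (ENSMUSG00000018906, chromosome 11, 54100095 to 54131665, plus strand), an isoform of the alpha subunit, was the hydroxylase with the lowest Tnmd-/- level relative to WT. Its counts were 12, 1 and 1 in Tnmd-/- cells 1, 3 and 7 and 0 in Tnmd-/- cells 9, 10 and 20. In the WT cells it had 456, 373 and 658 counts in cells 4, 5 and 10, 7 in cell 2, and 0 in cells 1 and 14. The 3 WT cells with at least 10 counts are thus the less degraded ones. The 3 less degraded Tnmd-/- cells had 0 counts at 6742665 to 10333351 reads each. The summed level was 0.399 CPM from 14 counts against 28.0 CPM from 1494 counts, a log2 ratio of −6.13 (−7.01 to −5.38). The ratio was −2.44 with DESeq2 size factors, −3.86 with TMM factors and −8.70 without Tnmd-/- cell 1, which held 12 of the 14 Tnmd-/- counts. Within the less degraded cells 0 counts faced 1487, and the log2 ratio was −8.48 or lower when 3 counts were put in place of 0. In the more degraded cells the direction was the opposite, with 14 counts against 7 and a log2 ratio of 1.99. Because Tnmd-/- cell 1 had reads and WT cells 1 and 14 had none, the genotypes overlapped.

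P4ha3 (ENSMUSG00000051048, chromosome 7, 100285520 to 100319699, plus strand), a further alpha isoform, was at 0 in all cells, which allows up to 0.0855 CPM in the summed Tnmd-/- and 0.0561 CPM in the summed WT reads. P4ha1 had the most alpha subunit reads in the 11 cells with at least 10 of them, although in WT cell 2 its 8 reads against 7 of P4ha2 show no lead (53.3% of reads, interval 26.6% to 78.7%). Counted per kilobase of exon, P4ha2 made up 4.97% of alpha subunit reads in the WT sum and 0.0456% in the Tnmd-/- sum. In the 3 less degraded WT cells its share was 4.74% for cell 4, 3.34% for cell 5 and 15.6% for cell 10. Both subunit isoforms had at least 10 counts in 1 Tnmd-/- and 3 WT cells.

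P4hb (ENSMUSG00000025130, chromosome 11, 120560298 to 120573253, minus strand) is the beta subunit, which also acts by itself as a protein disulfide isomerase. It had 11077, 10, 1581, 4535, 3202 and 6558 counts in Tnmd-/- cells 1, 3, 7, 9, 10 and 20 and 8499, 0, 11834, 5188, 6830 and 11 counts in WT cells 1, 2, 4, 5, 10 and 14. Tnmd-/- cells 1 and 7 and WT cell 1, all more degraded, had its highest levels at 2086, 1771 and 1419 CPM, and the remaining more degraded cells its lowest at 0 to 6.65 CPM. The less degraded cells lay between, at 311 to 973 CPM. Summed, P4hb stood at 768 and 606 CPM, a log2 ratio of 0.34 (0.32 to 0.37), which was −0.26 in the less degraded cells, 1.57 in the more degraded cells and −0.18 without Tnmd-/- cell 1. With DESeq2 size factors it was 2.67 and with TMM factors 1.99.

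P4hb and an alpha subunit, the parts of the tetramer, were counted together in 5 of 6 Tnmd-/- and 5 of 6 WT cells. Tnmd-/- cell 7 had 1581 P4hb but 6 alpha subunit counts, and WT cell 2 had 15 alpha subunit counts, none of its alpha genes reaching 10, and no P4hb. The balance of P4ha1 to P4hb reads per kilobase varied widely, from 0.00249 in Tnmd-/- cell 7 and 0.0096 in Tnmd-/- cell 1 to 1.84 in Tnmd-/- cell 9. In the WT cells it ran from 0.075 in cell 1 to 151 in cell 14, where 2390 P4ha1 reads stood beside 11 of P4hb. WT cell 14 is also the cell with the Tnmd reads. In the 6 less degraded cells the balance stayed between 0.283 and 1.84, and over the summed reads it was 0.522 in Tnmd-/- and 0.426 in WT. Over the 12 cells the levels of P4ha1 and P4hb had a Spearman rho of −0.03, given as a description of cells that also differ in depth and degradation.

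Sequences upstream of the start of transcription are shown for a pair of genes counted in nearly all cells, P4ha1 and P4hb, and for the pair without a read, P4ha3 and P3h3, so that counted and uncounted genes can be set side by side. They are the 250 bases before the RefSeq start in GRCm38.p6, read 5′ to 3′ on the strand of the gene, with each CG dinucleotide in capitals. The windows are chr10:59323046-59323295 (plus strand) for P4ha1, chr11:120573254-120573503 (minus strand) for P4hb, chr7:100285270-100285519 (plus strand) for P4ha3 and chr6:124857718-124857967 (minus strand) for P3h3.
P4ha1: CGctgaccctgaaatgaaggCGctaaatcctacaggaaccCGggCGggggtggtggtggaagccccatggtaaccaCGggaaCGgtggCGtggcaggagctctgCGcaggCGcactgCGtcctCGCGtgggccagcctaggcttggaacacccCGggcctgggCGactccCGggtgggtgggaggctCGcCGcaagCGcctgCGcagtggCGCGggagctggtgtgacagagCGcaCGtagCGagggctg
P4hb: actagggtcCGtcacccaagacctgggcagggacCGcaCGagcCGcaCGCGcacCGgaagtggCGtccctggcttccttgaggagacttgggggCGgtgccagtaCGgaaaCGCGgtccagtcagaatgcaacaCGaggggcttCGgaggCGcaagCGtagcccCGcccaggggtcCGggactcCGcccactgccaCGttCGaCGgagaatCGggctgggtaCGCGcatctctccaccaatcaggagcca
P4ha3: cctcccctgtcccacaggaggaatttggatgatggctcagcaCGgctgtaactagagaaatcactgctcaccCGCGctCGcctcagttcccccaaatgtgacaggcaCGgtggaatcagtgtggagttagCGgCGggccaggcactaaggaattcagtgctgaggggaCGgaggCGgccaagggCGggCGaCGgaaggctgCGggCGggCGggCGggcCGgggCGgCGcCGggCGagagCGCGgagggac
P3h3: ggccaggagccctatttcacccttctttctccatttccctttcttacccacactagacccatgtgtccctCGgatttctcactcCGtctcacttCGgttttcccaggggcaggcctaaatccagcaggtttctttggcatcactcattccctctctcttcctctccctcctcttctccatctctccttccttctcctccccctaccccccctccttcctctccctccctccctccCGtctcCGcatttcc
The windows of P4ha1, P4hb and P4ha3 hold 24, 25 and 23 CG dinucleotides and that of P3h3 holds 5, against a median of 6 over 32851 promoters of the same length. CG content therefore did not separate counted from uncounted genes here, since P4ha3 was as rich as P4ha1. The letters ACGTG are a form of the core that hypoxia-inducible factors recognise, and other forms were not searched. These letters or their complement CACGT occur in 1 place each in the windows of P4ha1 and P4hb and in none of P4ha3 or P3h3. On either strand 16.6% of all promoters hold them, and such a match is a string of letters, not a site. Of the other members with a window, P4ha2 and Plod3 have 1 match each, the downstream start of P3h1 has 2, and Plod1, Crtap and the upstream start of P3h1 have none.

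Among the lysyl hydroxylases Plod2 was counted in the most cells. Plod2 (ENSMUSG00000032374, chromosome 9, 92542223 to 92608428, plus strand) hydroxylates lysines in the telopeptides, from which the stable cross-links arise. It had 336, 2, 644, 4599, 4755 and 4410 counts in Tnmd-/- cells 1, 3, 7, 9, 10 and 20 and 135, 2, 151, 3947, 7338 and 6 counts in WT cells 1, 2, 4, 5, 10 and 14. In CPM, Tnmd-/- cells 7, 9, 10 and 20 were high at 445 to 721, as were WT cells 5 and 10 at 328 and 539, and the other 6 cells lay between 0.414 and 63.3. The log2 ratio of the sums, 420 over 217 CPM, was 0.96 (0.92 to 0.99). It kept its sign in both degradation levels, at 0.74 and 3.77, and with each cell left out in turn ranged from 0.59 to 1.98, the last without WT cell 10. With DESeq2 size factors it was 3.07 and with TMM factors 2.29. Gm38391, a gene on the opposite strand, shares 6.42% of the exon bases of Plod2, and the strand of counting is not given.

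Plod3 (ENSMUSG00000004846, chromosome 5, 136987019 to 136996648, plus strand), a lysyl hydroxylase that also adds sugars to hydroxylysine, was counted mostly in WT cells. It had 612, 1895, 1170 and 5445 counts in WT cells 1, 4, 5 and 10 and 1 and 0 in WT cells 2 and 14. Of the Tnmd-/- cells, cell 10 had 1897 counts and the other 5 had 0 to 3. Tnmd-/- cell 10 at 184 CPM was thus higher than WT cells 1, 4 and 5, at 97.3 to 152 CPM, and the genotypes overlapped. The summed levels were 54.2 CPM in Tnmd-/- and 171 CPM in WT cells, a log2 ratio of −1.65 (−1.73 to −1.58). The ratio was −1.69 in the less degraded and −6.27 in the more degraded cells, −9.46 without Tnmd-/- cell 10 and −0.77 without WT cell 10. Exons of Znhit1, on the opposite strand, and Mir702 overlap 11.9% of the exon bases of Plod3, and these reads cannot be assigned without knowing the strand.

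Plod1 (ENSMUSG00000019055, chromosome 4, 147909753 to 147936767, minus strand), which hydroxylates lysines in the helical part of the chain, had 587, 1, 1, 595, 2689 and 120 counts in Tnmd-/- cells 1, 3, 7, 9, 10 and 20 and 44, 0, 6358, 387, 298 and 1 counts in WT cells 1, 2, 4, 5, 10 and 14. Tnmd-/- cell 10 and WT cell 4 alone gave most of the reads of their genotype, at 261 and 510 CPM. The log2 ratio of the sums was −0.22 (−0.28 to −0.16) and ranged from −1.33 without Tnmd-/- cell 10 to 2.67 without WT cell 4. It was −0.57 in the less degraded and 4.70 in the more degraded cells. Spearman's rho of the Plod1 level with the total counts of a cell was 0.70 over the 12 cells. It was 0.58 for P4ha1, 0.25 for Plod2 and 0.08 for P4hb.

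The mix of the 3 lysyl hydroxylases differed from cell to cell. In the 9 cells with at least 10 reads of a Plod gene, Plod2 led per kilobase in 6, namely Tnmd-/- cells 7, 9, 10 and 20 and WT cells 5 and 10. Plod1 led in Tnmd-/- cell 1 and WT cell 4, and Plod3 led in WT cell 1 with 81.1% of the reads per kilobase. All 3 genes had at least 10 counts in 1 Tnmd-/- cell, cell 10, and in WT cells 1, 4, 5 and 10. In the sums Plod2 made up 73.0% and 41.2% of the Plod reads per kilobase in Tnmd-/- and WT cells, Plod3 11.2% and 38.7%, and Plod1 15.8% and 20.1%. Added together the 3 genes had a log2 ratio of 0.18 (0.15 to 0.20) over all cells, −0.024 in the less degraded cells, where the interval from −0.051 to 0.0024 includes 0, and 1.97 in the more degraded cells.

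**Figure D3:**
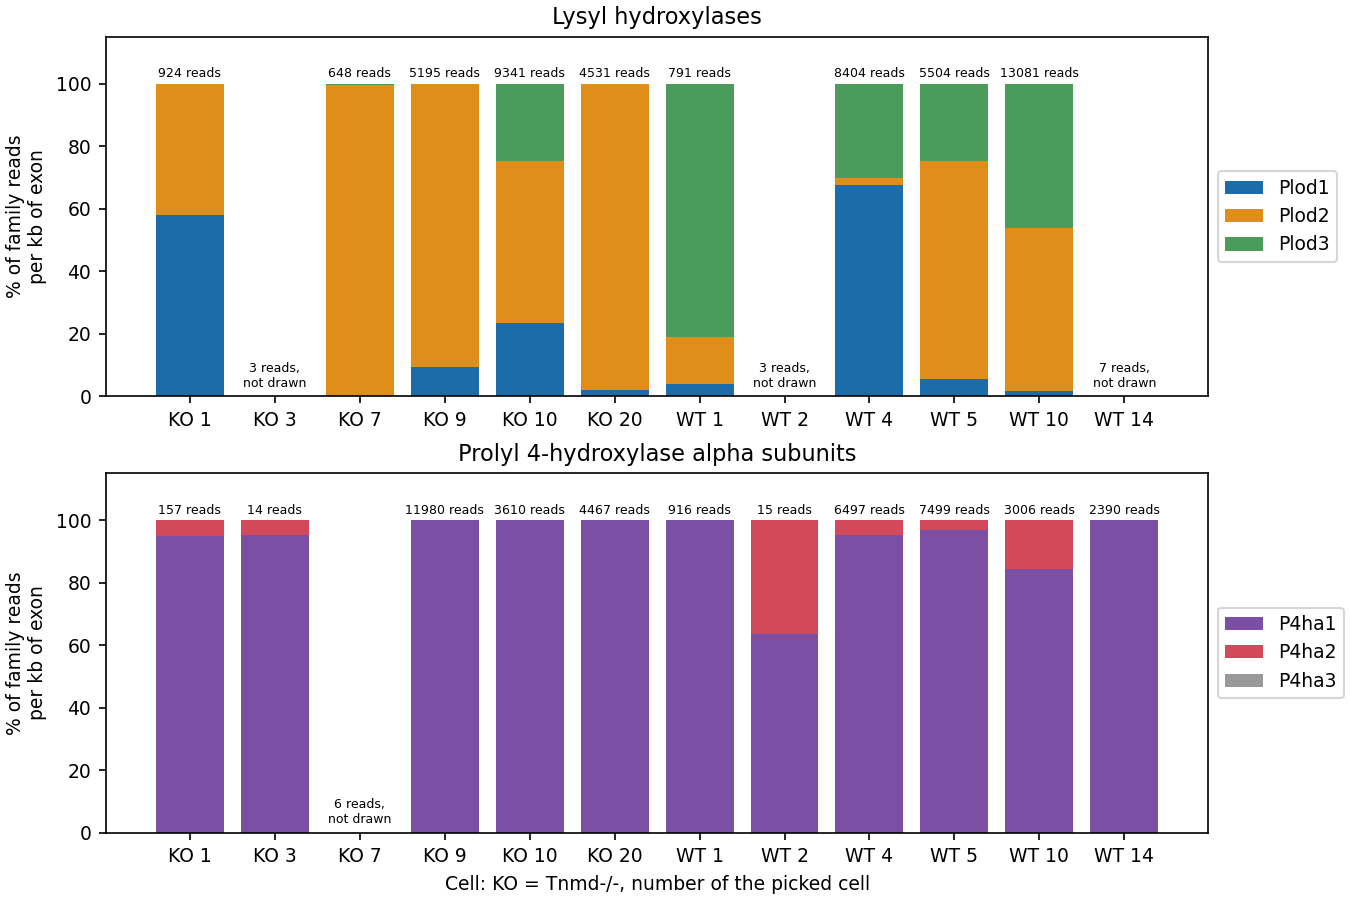
Share of each gene (vertical axis, % of the reads per kilobase of exon of its family) in the Plod family (top) and the alpha subunits (bottom) in each of the 12 cells (horizontal axis), with the reads of the family in that cell above the bar and no bar under 10 reads. Plod3 takes a visible part of the bar in WT cells 1, 4, 5 and 10 and Tnmd-/- cell 10, and P4ha1 is the largest part of every alpha subunit bar.

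Of the prolyl 3-hydroxylase complex, P3h1 and Crtap had at least 10 counts in 3 cells each. Of all 9768 genes with at least 20 counts, 43.5% reached 3 cells or more. P3h1 or Crtap had 10 or more counts in 5 of 12 cells. P3h1 (ENSMUSG00000028641, chromosome 4, 119232915 to 119248975, plus strand), the catalytic part of the complex, had 1491 counts in Tnmd-/- cell 7, 81 in Tnmd-/- cell 9 and 1024 in WT cell 10. A further read lay in WT cell 4, and the other 8 cells had none. Because of the low depth of Tnmd-/- cell 7 its 1491 reads amount to 1670 CPM, against 75.2 CPM in WT cell 10. The summed log2 ratio of 1.22 (1.11 to 1.34) therefore turned to −3.02 without Tnmd-/- cell 7, to −2.95 without Tnmd-/- cells 3 and 7, and to −3.18 (81 against 1025 counts) in the less degraded cells, whereas it was 7.51 with DESeq2 size factors and 6.48 with TMM factors.

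Crtap (ENSMUSG00000032431, chromosome 9, 114375134 to 114390675, minus strand), the non-catalytic partner that stabilises P3h1, had 666 counts in Tnmd-/- cell 1, 1161 in Tnmd-/- cell 9 and 81 in WT cell 5. The other 4 Tnmd-/- cells had 0 to 3 counts and the other 5 WT cells 0 or 1. Tnmd-/- cells 1 and 9 stood at 125 and 112 CPM and WT cell 5 at 6.74 CPM, while cells without a read occurred in both genotypes. The summed levels were 52.2 and 1.55 CPM, a log2 ratio of 5.07 (4.75 to 5.40), and it was 4.30 in the less degraded cells and, resting on 1 WT count, 10.38 (7.90 to 15.68) in the more degraded cells. Without Tnmd-/- cell 9 it was 4.12 and without WT cell 5 it was 10.08. P3h1 and Crtap were counted together in a single cell, Tnmd-/- cell 9, which also held 791 counts of Ppib. P3h3 (ENSMUSG00000023191, chromosome 6, 124841089 to 124857752, minus strand) is a relative of P3h1 that works with Plod1 on helical lysines. It was at 0 in every cell, with the same floor and upper limit in counts as P4ha3.

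The differences between genotypes were read against those of all genes. On the log2 scale with 1 CPM added, 2 of the 8 hydroxylase genes with at least 20 counts were lower in Tnmd-/- by more than 2-fold, P4ha2 and Plod3, where 34.9% of all genes were. Another 2 were higher by more than 2-fold, P3h1 and Crtap, where 35.5% of all genes were. Neither share exceeded its background in these sums. Without Tnmd-/- cells 3 and 7, 3 of the 8 genes were lower, where 35.9% of all genes were, and 1 was higher, where 31.2% were. In the more degraded cells 5 of the 8 were higher, where 29.6% of all genes were, and in the less degraded cells 1 was, where 28.3% were. In none of the 8 genes were the 6 cells of a genotype all above the 6 cells of the other, a state that 4 of the 9768 genes or 0.041% showed. Of the 8 genes 5 were higher and 3 lower, where 4986 and 4782 of all 9768 genes were. The median log2 difference over the 8 genes was 0.53, and over all genes it was 0.06. Without Tnmd-/- cell 7 the median of the 8 genes was 0.055, and in the less degraded cells it was −0.41.

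**Figure D4:**
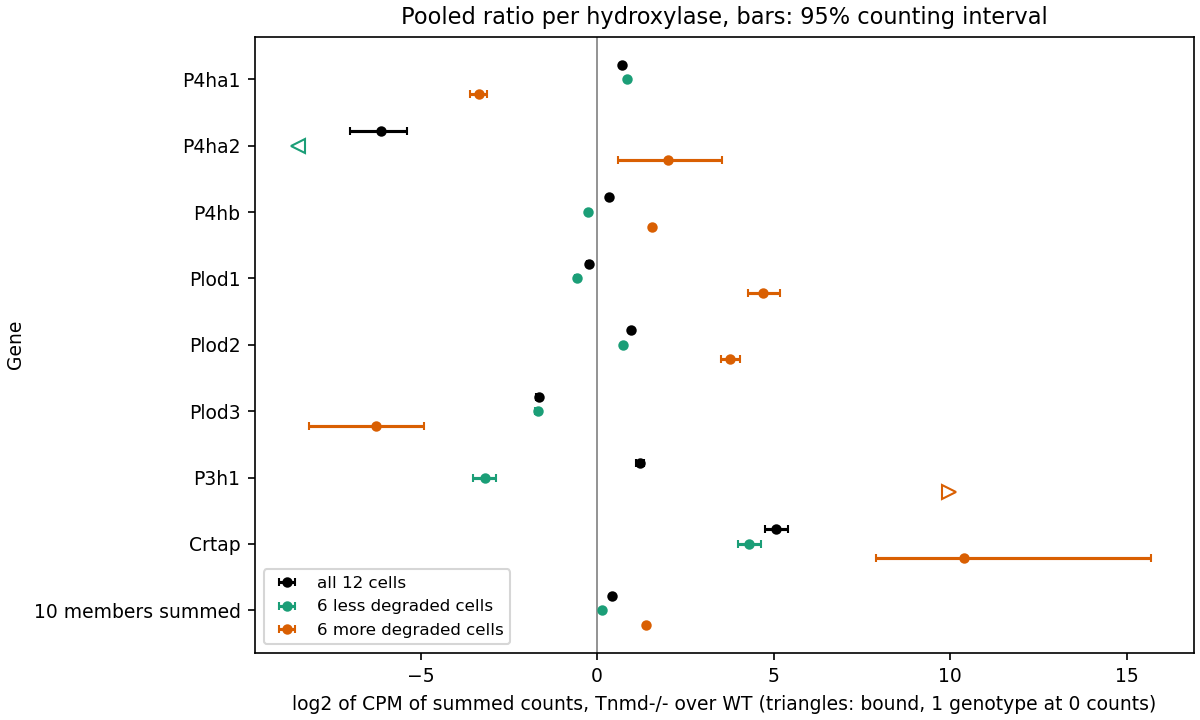
Log2 ratio of CPM, Tnmd-/- over WT summed reads (horizontal axis), for the 8 hydroxylase genes with reads and for the sum of all 10 genes (rows), in all 12 cells (black), the 6 less degraded cells (green) and the 6 more degraded cells (orange). Bars are 95% counting intervals and triangles are bounds where a genotype had 0 counts. P4ha1, P4ha2, P4hb, Plod1 and P3h1 lie on opposite sides of 0 in the green and orange points, while Plod2 and Crtap stay above 0 and Plod3 below 0.

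Ranked by summed level per kilobase of exon, P4hb came before P4ha1 and Plod2 in both genotypes, at 269, 140 and 77.9 CPM per kilobase in Tnmd-/- and 212, 85.6 and 40.2 in WT. The next places differed, with Crtap at 29.4, Plod1 at 16.8, Plod3 at 12, P3h1 at 11.6 and P4ha2 at 0.064 CPM per kilobase in Tnmd-/- cells. In the WT cells Plod3 followed at 37.8, then Plod1 at 19.6, P3h1 at 4.99, P4ha2 at 4.48 and Crtap at 0.877 CPM per kilobase. Medians over the cells gave another order, although P4hb had the highest median in both genotypes, at 247 and 163 CPM per kilobase. In Tnmd-/- cells Plod2 had a median of 84.1, above P4ha1 at 45.9, and Crtap had 0.563. In WT cells Plod3 had a median of 22.1, above Plod2 at 3.21. Neighbours in either summed order had overlapping ranges over the cells, apart from P4ha3 and P3h3, which were both at 0. In individual cells the member with the highest level per kilobase was P4hb in 9 cells and P4ha1 in Tnmd-/- cell 9 and WT cells 2 and 14.

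The partners that handle the hydroxylated chain went in both directions. Of 9 partner genes 7 had at least 20 counts. Of these, 3 were higher in Tnmd-/- by more than 2-fold, where 35.5% of all genes were. Another 2 were lower by more than 2-fold, where 34.9% of all genes were. The median log2 difference of the 7 genes was −0.21, against 0.06 over all genes. Serpinh1, the collagen chaperone Hsp47, had 1366, 1998, 1354 and 2181 counts in WT cells 1, 2, 5 and 10, 2 to 4 in the other WT cells, and 27 counts in all 6 Tnmd-/- cells together. Fkbp10, a peptidyl-prolyl isomerase that assists Plod2, had the reverse placement, with 2066 and 993 counts in Tnmd-/- cells 10 and 20, 0 in the other 4, and 4 counts over all WT cells. Ppib, the cyclophilin of the 3-hydroxylase complex, had a summed log2 ratio of −0.22 and at least 10 counts in 4 Tnmd-/- and 3 WT cells. P3h2, a prolyl 3-hydroxylase, was counted in Tnmd-/- cell 10 with 870 reads and in WT cells 5 and 10 with 351 and 5600.

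Relatives of these enzymes with other substrates were set beside them. Of 5 disulfide isomerase relatives of P4hb, 4 had at least 20 counts, and the median log2 difference was −3.06. Pdia3, which folds glycoproteins, was counted in all 12 cells at a summed 664 and 716 CPM, and no cell of either genotype was below 16.4 CPM. Pdia6 and Txndc5 had 96 and 45 counts in the Tnmd-/- sum against 12849 and 10199 in the WT sum, and WT cell 2, which lacked P4hb, held 6351 and 9051 of the latter. In the same cell Pdia3, with 79 counts or 16.4 CPM, was at its lowest of all 12 cells, and Ppib had 0 counts. The reason for the low hydroxylase reads of WT cell 2 was not tested. Of the 5 oxygen-sensing hydroxylases of HIF and P4htm, 3 had at least 20 counts. Their median number of cells with at least 10 counts was 1, against 2 over all genes. Egln3 had 3061 reads in WT cell 10 and 0 to 2 in every other cell, Egln1 had 548 and 874 in WT cells 1 and 4, and Hif1an had all of its 132 in Tnmd-/- cell 20.

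The fibrillar collagen chains, the substrates of these enzymes, added up to 447 CPM in Tnmd-/- and 886 CPM in WT cells over 9 genes. Their log2 ratio of −0.99 held in the less degraded cells (−1.81) and without Tnmd-/- cell 7 (−1.56), but it was 0.49 in the more degraded cells, 0.61 with equal weights for cells, 3.21 with DESeq2 size factors and 2.70 with TMM factors, so its sign depended on the weight given to single cells. In the summed reads all 6 chain genes with at least 20 counts were on the lower side in Tnmd-/-, where 4782 of all 9768 genes were. Of the 6 chain genes 4 were lower by more than 2-fold, where 34.9% of all genes were. Their median log2 difference over the 6 genes was −1.98, beside 0.53 for the hydroxylases and 0.06 for all genes. Col1a2, the alpha chain of type I collagen counted in all 12 cells, stood at 237 and 302 CPM, Col1a1 at 56.7 and 64.4 CPM, and Col5a2 of the fibril core at 138 and 374 CPM. Of the 1990 Tnmd-/- counts of Col1a1, however, 1983 lay in cell 7. For Col1a1, 0 Tnmd-/- counts stood against 1831 WT counts in the less degraded cells, and 1990 against 1612 in the more degraded cells. In the more degraded cells Col1a2 was also higher in Tnmd-/-, at a log2 ratio of 0.51, while Col5a2 was lower at −0.68. More hydroxylase than fibrillar collagen reads were counted in 4 Tnmd-/- and 5 WT cells. The extreme was Tnmd-/- cell 10, with 1568 CPM of hydroxylases beside 4.85 CPM of collagen chains, and the opposite was Tnmd-/- cell 3, with 19.9 beside 302 CPM. Tnmd-/- cell 7 was highest in both, at 4174 and 6020 CPM, and WT cell 2 lowest in both, at 3.94 and 2.90 CPM. Spearman's rho between the sums was 0.46 over the 12 cells. The hydroxylase sum had a rho of 0.11 with the total counts of a cell.

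**Figure D5:**
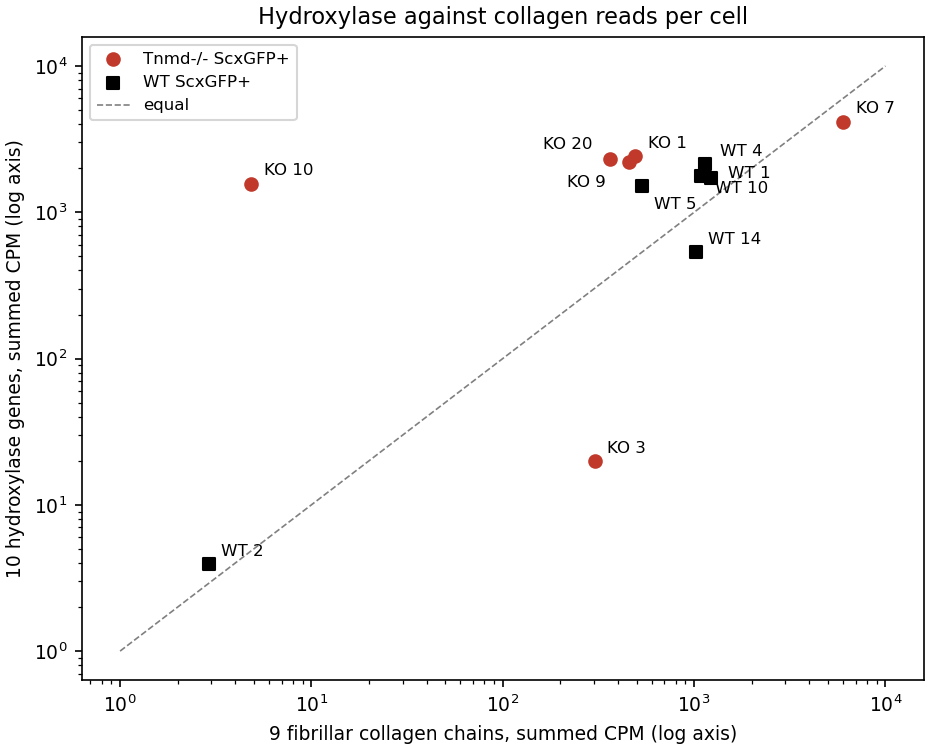
Summed CPM of the 10 hydroxylase genes (vertical, log axis) against the summed CPM of 9 fibrillar collagen chain genes (horizontal, log axis) in 6 Tnmd-/- (circles) and 6 WT cells (squares), with a dashed line of equality. The 9 cells with more hydroxylase than collagen reads lie above the line, Tnmd-/- cell 10 far to the left at 4.85 CPM of collagen, and Tnmd-/- cells 3 and 7 and WT cell 14 below it.

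Genes with the most similar pattern over the 12 cells were looked up among 1831 genes that reached 10 counts in 6 cells or more, members left out. For P4ha1 they were Rps15a, Gm3531 and Actn4, with Spearman rho of 0.92, 0.91 and 0.89. For P4hb they were Atrx, Ggnbp2 and Ier2 (0.85, 0.81 and 0.81), for Plod1 Sars, Ppa1 and Pkm (0.92, 0.90 and 0.90), and for Plod2 Hmgb2, Pfn1 and Sept2 (0.80, 0.80 and 0.79). No name recurred between these lists. The sum of the 10 genes was most like Svil, Atp5e and Ift20 (0.85, 0.81 and 0.80). Of the fibrillar collagen chains only Col1a2, in 12 cells, and Col5a2, in 8, met the minimum of 10 counts in 6 cells. The other chains could therefore not appear here. Neither Col1a2 nor Col5a2 was among the genes named, and the sum had a rho of 0.43 with Col1a2 and 0.29 with Col5a2. With so many genes ranked over 12 cells that share their depth and degradation, these values describe the libraries only.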

How the data were processed

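Single-cell RNA-seq of 12 picked cells was analysed, 6 per genotype as the sample labels give them. The authors trimmed reads with BBDuk, kept reads specific to mouse with BioBloom Tools, aligned to GRCm38 with the Ensembl 96 annotation in STAR 2.5.1b, and took unique exon reads by featureCounts of Subread 2.0.0. The strand setting is not given in the sources used here. FastQC 0.11.9 and MultiQC 1.9 are also listed in the submitters' processing notes. The deposited values are raw counts per gene and cell, with no normalization, and ComBat-corrected values were not used here.

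From the deposited counts, a genotype's reads of a gene were added up and expressed per 1000000 of all its reads (CPM). With no animal named in the labels, a genotype was 1 sample and no p-value was computed. Intervals are exact at 95% (Clopper-Pearson). A sum of 0 was compared with a floor of 3 counts, 0.0855 CPM in Tnmd-/- and 0.0561 CPM in WT cells. Detection means at least 10 counts in a cell. Lists over all genes used those with at least 20 counts, with 1 CPM added before log2. Gene positions came from GENCODE M21 and upstream sequences from RefSeq (GRCm38.p6), where 9 of 10 members had an entry and Plod2 had none.

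Named are the 10 members, at most 4 genes of each related list by level or ratio, and the 3 genes most like each widely counted member. Members and lists were chosen with earlier results of these data known, and the marker and gene lists were chosen by symbol. The alternatives were equal cell weights, size factors of DESeq2 1.42.0, TMM of edgeR 4.0.16, totals without the 37 mitochondrial genes, each degradation level, 5 CPM added, no minimum or 100 counts, and each cell left out. Leaving out Tnmd-/- cells 3 and 7 for their depth was chosen after seeing the data. Scripts ran in Python 3.11.15, pandas 2.3.3, scipy 1.17.1 and R 4.3.3.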

Additional observations from a re-analysis of the deposited data

Results flagged for a closer look

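Within the 6 cells of a genotype, levels were compared on the log2(CPM + 1) scale. The gap of a cell to the nearest other cell was divided by the range of the group. A cell was picked out where this value exceeded the critical value of Dixon's test at 95%. Chance alone passes that limit in about 5% of groups only where the values are normally distributed. Several groups here hold mostly cells with no or few counts, so the 5% rate cannot be assumed. Each cell named below passed the limit, which is given as a description only.

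The lowest P4ha1 level among the WT cells, in cell 2 with 8 counts, had a gap of 0.750 of the range. The lowest P4hb level among the Tnmd-/- cells, in cell 3 with 10 counts, had a gap of 0.661. For the 10 hydroxylase genes summed, the same cells were lowest, Tnmd-/- cell 3 with a gap of 0.815 and WT cell 2 with a gap of 0.771. Tnmd-/- cell 3 has 51.8% mitochondrial reads, and WT cell 2, at 4825610 reads, has 3.54%.

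At the upper end, the Plod3 level of Tnmd-/- cell 10, with 1897 counts, had a gap of 0.718 of the range. For P3h1 the highest cells were Tnmd-/- cell 7 (1491 counts) with a gap of 0.706 and WT cell 10 (1024 counts) with a gap of 0.982. The Crtap level of WT cell 5, with 81 counts, had a gap of 0.908. In these 4 cases nearly all the other cells of the genotype were at or near 0 counts.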

How the results depend on the processing

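The summed hydroxylase log2 ratio of 0.41 was above 0 under every alternative run. It was 0.73 with equal weights for cells, 2.48 with DESeq2 size factors and 1.90 with TMM factors (both with cells weighted equally), 0.45 without mitochondrial genes, 0.14 in the less degraded cells, 1.38 in the more degraded cells, 0.44 without Tnmd-/- cells 3 and 7 (the cells of lowest depth, left out after the data were seen) and, with each cell left out in turn, 0.28 (without WT cell 2) to 0.60 (without WT cell 4). The DESeq2 factors rested on 771 genes counted in all cells and were 0.0379 and 0.0319 for Tnmd-/- cells 3 and 7, against 0.558 to 5.01 for the other cells. The median over members of 0.53 was 1.18 with DESeq2 factors, 1.02 with TMM factors, −0.41 in the less degraded and 2.60 in the more degraded cells, 0.17 with no minimum count, 0.12 without Tnmd-/- cells 3 and 7, and 0.055 (without Tnmd-/- cell 7) to 0.78 (without Tnmd-/- cell 10) with cells left out. The number higher by more than 2-fold, 2, of 8, was 4 with DESeq2 or TMM factors (38.3% and 36.6% of all genes), 1 in the less degraded cells (28.3%) and without Tnmd-/- cells 3 and 7 (31.2%), 5 in the more degraded cells (29.6%), and 1 (without Tnmd-/- cell 7) to 3 with cells left out. The number lower, 2, was 1 (without WT cell 10) to 3.

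The median number of members detected in WT cells, 5.5, was 2 in the more degraded cells and 5 to 6 with cells left out, and in Tnmd-/- cells, 4.5, it was 3 in the more degraded cells, 5.5 without cells 3 and 7 and 4 to 5 with cells left out. Cells with P4hb and an alpha subunit, 5 in each genotype, numbered 4 to 5 with cells left out, and 6 in Tnmd-/- and 5 in WT with at least 1 count as the limit. Among single genes, P4ha2 turned to 1.99 in the more degraded cells, and P3h1 to −3.18 in the less degraded cells, −2.95 without Tnmd-/- cells 3 and 7 and −3.02 to 10.80 with cells left out (without Tnmd-/- cell 7 and without WT cell 10). The cause of these shifts was not tested. No paired analysis was possible because cell numbers only name cells and no test between genotypes was made. Depth limits the uncounted genes: 0 counts in the sum bound P4ha3 and P3h3 only down to 0.0855 and 0.0561 CPM.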
